A study of Homo sapiens with 16 samples.

Results

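FREM2, GPC3, RSPO3, AQP4 and CCDC80 are 5 of the 43388 genes measured in cardiomyocytes derived from human pluripotent stem cells (hPSC-CMs), and they were chosen on their TPM, which in every Day 30 medium lay far below that at Day 16. Since that difference chose them, the Day 30 against Day 16 values of these genes are a description and carry no test. There were 4 groups of 4 libraries: the baseline of Day 16, and Day 30 after further culture with RPMI/B27, with RPMI_glcM/B27 or with HPLM/B27. Where 3 Day 30 values are given without a medium, they follow this order. All 16 libraries came from WTC11, a wild-type line of human induced pluripotent stem cells, differentiated by the GiWi protocol, which switches Wnt signaling on and then off with small molecules. Cardiac progenitor cells were frozen during the protocol, thawed and grown in RPMI/B27 medium until Day 16, when wells of hPSC-CMs described as highly pure either were harvested or went on in 1 of the media until Day 30. RPMI/B27 is the standard medium, RPMI_glcM/B27 is the same medium with glucose set to 5 mM, and HPLM/B27 is based on human plasma-like medium, which imitates the small molecules of plasma and also holds 5 mM glucose. B27, a serum-free supplement, was present in all groups. A library came from a single well of a culture plate, and the deposited design text gives 3 wells per medium where the labels give 4. The authors refer to this sequencing as a single differentiation. The p-values therefore measure the spread between wells of a single line and not between differentiations.

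The 5 genes work at the cell surface or outside the cell. FREM2 is a large membrane protein of the Fraser complex, which joins epithelia to the basement membrane in the embryo. GPC3 is a glypican, a heparan sulfate proteoglycan held to the membrane by a lipid anchor, and it is a well known product of fetal liver and of several embryonic mesodermal tissues. RSPO3 is a secreted R-spondin, which binds LGR receptors and so keeps the ubiquitin ligases ZNRF3 and RNF43 from removing Wnt receptors. AQP4 is a water channel best known from astrocyte end feet, and CCDC80 is a secreted protein that binds extracellular matrix. R-spondins and glypicans both tune how strongly a cell responds to Wnt proteins, a pathway that must fall silent for cardiac progenitors to become beating cardiomyocytes.

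Values are TPM, a measure of transcript abundance that corrects for the length of a gene and sums to 1000000 in each library, so levels of different genes can be set side by side. Each library held between 7744768 and 16183655 whole reads on genes. The noncoding RNAs RNR2 and RN7SK made up 41.0% to 48.3% and 8.76% to 13.8% of the TPM of a library. The RN7SK share was higher in every Day 30 library than in any Day 16 library. What these RNAs contribute to the deposited differences from Day 16 was not tested. The cardiomyocyte label held for the markers examined: the summed TPM of TNNT2, ACTN2, MYH6, MYH7 and 6 further cardiomyocyte genes was 12099 to 13399 at Day 16 and 11921 to 16026 over the Day 30 groups. Replicates 3 and 4 of Day 30 RPMI/B27 stood apart from the other libraries, with 14387 and 29276 TPM of the mitochondrial ribosomal RNA RNR1 where the other 14 libraries held 49.5 to 6806 TPM. Their median-of-ratios factors, which place the bulk of genes on a common scale, were 0.786 and 0.727 against 1.16 and 1.19 in replicates 1 and 2 of that group. As deposited, the median of all 16122 tested genes was lower than at Day 16 by a log2 difference of -0.28, -0.22 and -0.29 in the Day 30 media, so values rescaled by these factors are given beside the deposited ones. In bulk RNA, fewer cells that express a gene and less RNA per cell cannot be told apart.

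The bases ahead of RefSeq start sites are shown as a description. That the 5 genes were all lower at Day 30 was fixed by their choice, which did not use sequence. RefSeq start sites of the build GRCh38.p14 were matched for 4 of the 5 genes, FREM2, RSPO3, AQP4 and CCDC80, with 6 start sites in all, of which 3 belong to AQP4. On both strands, from 250 bases before to 50 bases after each start, 6 short motifs were searched. The letters TATAAA mark the promoter box that positions the polymerase, and CCAAT marks the box bound by nuclear factor Y. For factors of the heart lineage, AGATAA was searched for GATA factors, AGGTGT for T-box factors and GGAATG for TEAD factors. For the TCF and LEF factors, which carry the Wnt signal to DNA, the letters were CTTTGA. The 250 bases before the start are printed on the strand of the gene, at chr13:38686827-38687076 (plus strand) for FREM2, chr6:127118421-127118670 (plus strand) for RSPO3, chr18:26862911-26863160 (minus strand) for the third AQP4 start and chr3:112641144-112641393 (minus strand) for CCDC80, with capitals for the motif letters found on either strand. The CCDC80 start and the third AQP4 start lie inside the span of their gene, so these stretches are ahead of an internal start, and the outer CCDC80 start was not examined.
FREM2: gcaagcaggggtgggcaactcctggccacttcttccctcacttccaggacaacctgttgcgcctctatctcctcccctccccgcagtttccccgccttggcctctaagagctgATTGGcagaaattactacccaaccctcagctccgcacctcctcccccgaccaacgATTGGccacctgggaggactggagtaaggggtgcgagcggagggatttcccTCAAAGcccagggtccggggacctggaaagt
RSPO3: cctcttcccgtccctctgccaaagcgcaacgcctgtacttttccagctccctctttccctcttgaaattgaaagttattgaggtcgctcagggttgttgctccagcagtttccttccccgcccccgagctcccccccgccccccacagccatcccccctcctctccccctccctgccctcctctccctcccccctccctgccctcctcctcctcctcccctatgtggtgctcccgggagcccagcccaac
AQP4: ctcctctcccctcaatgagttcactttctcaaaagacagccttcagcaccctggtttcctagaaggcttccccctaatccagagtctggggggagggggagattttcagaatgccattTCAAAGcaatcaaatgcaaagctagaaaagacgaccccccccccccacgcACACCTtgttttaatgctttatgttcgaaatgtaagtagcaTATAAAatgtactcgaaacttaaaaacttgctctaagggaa
CCDC80: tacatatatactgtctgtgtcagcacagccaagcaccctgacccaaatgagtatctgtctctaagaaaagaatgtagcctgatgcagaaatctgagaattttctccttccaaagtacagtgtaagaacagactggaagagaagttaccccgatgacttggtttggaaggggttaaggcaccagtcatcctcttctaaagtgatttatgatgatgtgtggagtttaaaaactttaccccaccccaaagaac

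The FREM2 stretch held the CCAAT box on the opposite strand at 137 and at 82 bases before the start, and the TCF and LEF letters on the opposite strand at 31 bases before it. The third AQP4 start had TATAAA 41 bases ahead of it, with the TCF and LEF letters at 132 and the T-box letters at 82 bases before the start on the opposite strand. The first and second AQP4 starts held CCAAT and the TEAD letters. In RSPO3 and CCDC80 none of the 6 motifs was found in the window. Among 35116 promoters of the same length, 34.6% held CCAAT, 12.9% the TCF and LEF letters, 11.5% TATAAA, 14.03% the TEAD letters, 11.4% the T-box letters and 10.3% the GATA letters, so no motif was found in all 4 genes and each of those found is common. GC content of the printed bases was 61.2% in FREM2, 64.8% in RSPO3, 45.2% at the third AQP4 start and 42% in CCDC80, against a median of 58% over all promoters.

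FREM2 (chromosome 13, 38687077 to 38887131 on the plus strand of GRCh38, 24 exons in its canonical transcript) was the most abundant of the 5 genes at Day 16. Its level there was 85.8, 59.8, 83.1 and 71.9 TPM in replicates 1 to 4. At Day 30 it was 15.9, 17.3, 14.8 and 10.8 TPM in the RPMI/B27 libraries, 16.5, 13.9, 13.5 and 11.9 TPM in those of RPMI_glcM/B27, and 11.7, 11.5, 13.9 and 10.5 TPM in those of HPLM/B27. The 12 Day 30 libraries formed a single band across the media, and its highest value lay far under the lowest Day 16 value. These values rest on 708 to 1759 reads per Day 30 library. The mean was 75.1 ± 11.9 TPM at Day 16 (SD, n = 4) and was 5.11-fold lower in RPMI/B27 (14.7 ± 2.79), 5.39-fold lower in RPMI_glcM/B27 (13.9 ± 1.94) and 6.32-fold lower in HPLM/B27 (11.9 ± 1.41). After rescaling the folds were 4.09, 4.51 and 4.99.

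GPC3 (chromosome X, 133535745 to 133987100 on the minus strand, 8 exons) started near the level of FREM2 and stood lowest in RPMI_glcM/B27 and HPLM/B27. Day 16 libraries held 72.6, 67.2, 65.5 and 55.6 TPM. Day 30 RPMI/B27 libraries held 17.8, 15.5, 10.1 and 9.33 TPM. In that medium replicates 3 and 4, the pair high in RNR1, were the lower ones, and after rescaling the 4 libraries lay closer together, at 12.8 to 15.3 TPM. RPMI_glcM/B27 gave 9.17, 5.99, 7.95 and 8.39 TPM and HPLM/B27 gave 5.62, 5.25, 9.28 and 5.14 TPM. All 8 of these lay under the lowest RPMI/B27 library, although the highest, replicate 3 of HPLM/B27, did so narrowly. From 65.2 ± 7.09 TPM at Day 16 the mean was 4.95-fold lower in RPMI/B27 (13.2 ± 4.12), 8.28-fold lower in RPMI_glcM/B27 (7.87 ± 1.35) and 10.3-fold lower in HPLM/B27 (6.32 ± 1.98), with rescaled folds of 4.03, 6.80 and 8.07.

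RSPO3 (chromosome 6, 127118671 to 127199481 on the plus strand, 5 exons) kept a larger share of its Day 16 level. Its TPM at Day 16 was 37.5, 46.8, 38.1 and 35.1. By Day 30 it was 14.9, 14.4, 10.5 and 11.5 TPM for RPMI/B27, 8.92, 7.73, 7.60 and 7.45 TPM for RPMI_glcM/B27, and 9.66, 8.53, 8.41 and 8.49 TPM for HPLM/B27. Every RPMI_glcM/B27 and HPLM/B27 library was below every RPMI/B27 library. The RPMI_glcM/B27 and HPLM/B27 groups were both tight, apart from replicate 1, the highest in each. Of the Day 16 mean of 39.4 ± 5.13 TPM, RPMI/B27 kept 32.6% (12.8 ± 2.16), RPMI_glcM/B27 20.1% (7.93 ± 0.675) and HPLM/B27 22.3% (8.77 ± 0.593). The folds of 3.07, 4.97 and 4.49 became 2.43, 4.09 and 3.49 after rescaling.

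AQP4 (chromosome 18, 26852043 to 26865771 on the minus strand, 5 exons) was the least abundant of the 5 at Day 16 and lost the largest share. Day 16 libraries measured 6.68, 6.84, 8.57 and 6.64 TPM, from 146 to 181 reads. Day 30 RPMI/B27 libraries measured 0.986, 0.796, 1.08 and 0.568 TPM, RPMI_glcM/B27 libraries 0.259, 0.540, 0.163 and 0.330 TPM, and HPLM/B27 libraries 0.325, 0.458, 0.401 and 0.338 TPM. The Day 30 groups rest on 18 to 45, 3 to 11 and 8 to 12 reads per library, so counting error alone is large there, and AQP4 passed the filter of a mean of 1 TPM only through Day 16. The mean of 7.18 ± 0.927 TPM was 8.38-fold lower in RPMI/B27 (0.857 ± 0.226), 22.2-fold lower in RPMI_glcM/B27 (0.323 ± 0.160) and 18.9-fold lower in HPLM/B27 (0.380 ± 0.0614). On the log2(TPM + 1) scale, which understates changes of low genes, these differences were -2.14, -2.63 and -2.56.

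CCDC80 (chromosome 3, 112596797 to 112649530 on the minus strand, 8 exons) changed least. Day 16 libraries held 40.9, 45.7, 49.9 and 43.6 TPM, a spread of 3.82 TPM (SD) around 45.0 TPM. RPMI/B27 libraries at Day 30 held 17.7, 18.5, 17.2 and 14.7 TPM, those in RPMI_glcM/B27 9.53, 12.5, 12.0 and 9.91 TPM, and those in HPLM/B27 12.2, 11.4, 10.8 and 14.6 TPM. RPMI/B27 was again the highest Day 30 group, and replicate 4 of HPLM/B27 lay only just under its lowest library. The mean was 2.64-fold lower than at Day 16 in RPMI/B27 (17.0 ± 1.63 TPM), 4.10-fold in RPMI_glcM/B27 (10.99 ± 1.49) and 3.68-fold in HPLM/B27 (12.2 ± 1.67), and after rescaling 2.07-, 3.39- and 2.87-fold.

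**Figure D1:**
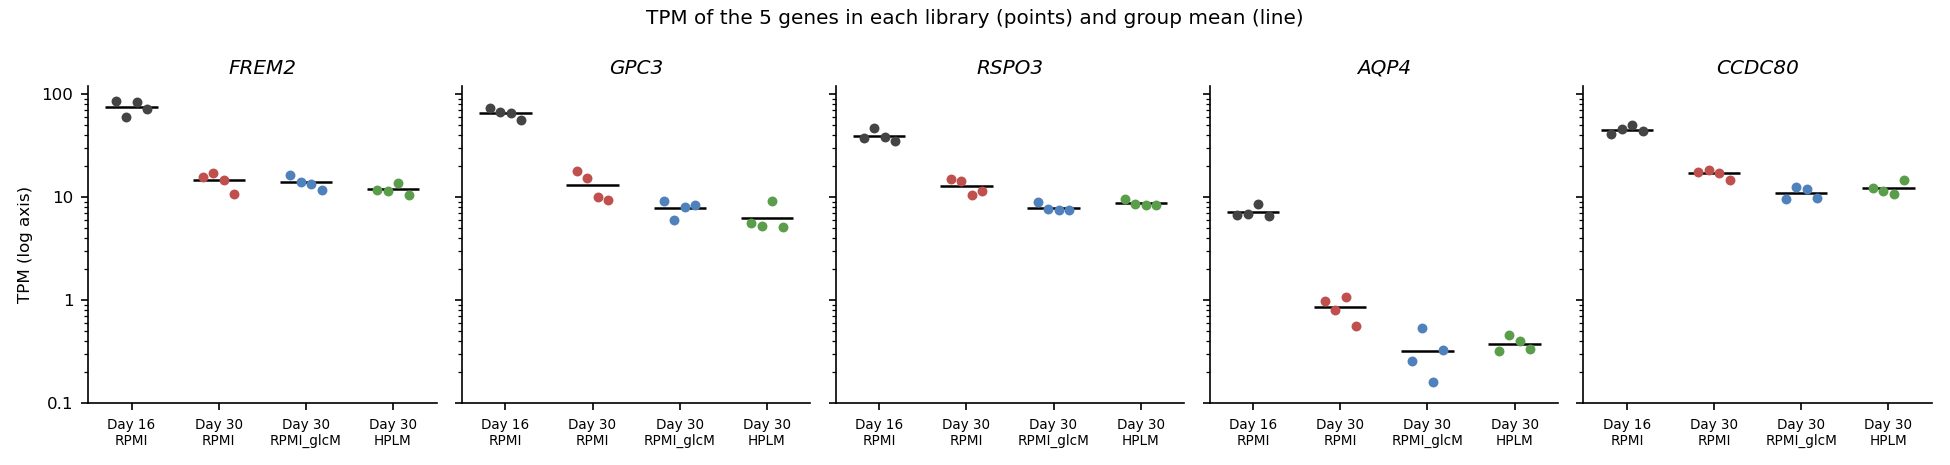
TPM on a log axis (y) of FREM2, GPC3, RSPO3, AQP4 and CCDC80 in the 4 groups (x), with points for the 4 libraries of a group and a line for their mean. In each panel the 4 Day 16 points lie above all 12 Day 30 points, and in the panels other than FREM2 the RPMI/B27 points lie above those of both other Day 30 media.

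The most reduced genes of the whole table put these values in place. Ranked by the smallest of the 3 drops, FREM2 was 5, GPC3 7, AQP4 9, RSPO3 45 and CCDC80 94 of 16122 genes, a standing that the choice of the genes fixes. Every Day 16 library exceeded every Day 30 library in 1726 genes, 10.7% of those tested, and all 3 log2 differences were at or below -1 in 293 genes. Ahead of FREM2 stood HAS2, which makes hyaluronan and went from 19.8 TPM to between 1.70 and 2.09 TPM, LOC100506664, the Wnt ligand gene WNT2, which went from 5.59 TPM to between 0.0180 and 0.154 TPM, and the collagen gene COL2A1. APOB, the apolipoprotein of liver lipoproteins, stood directly after AQP4, at 34.7 TPM at Day 16 and 7.33, 3.14 and 2.504 TPM at Day 30. The microRNA genes MIR1205 and MIR1207 completed the first 10.

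The order of the 5 genes shifted between the days. At Day 16, FREM2 was highest in 3 libraries and GPC3 in the other, while at Day 30 CCDC80 led in 3 of 4 RPMI/B27 libraries and FREM2 in all 4 RPMI_glcM/B27 libraries, and AQP4 was lowest throughout. Measured against FREM2 in the same library, which removes the scale of the library, GPC3 had a ratio of 0.883 ± 0.163 at Day 16 and 0.890 ± 0.180 in Day 30 RPMI/B27 but 0.570 ± 0.114 in RPMI_glcM/B27 and 0.524 ± 0.0976 in HPLM/B27 (SD, n = 4). On average GPC3 thus kept its proportion to FREM2 in RPMI/B27 and held a smaller one in the other media. The RPMI/B27 range of 0.682 to 1.12 overlapped that of RPMI_glcM/B27 (0.431 to 0.708) and lay above that of HPLM/B27 (0.458 to 0.669). The ratios were not tested. RSPO3 had a ratio of 0.542 at Day 16 and of 0.884, 0.572 and 0.746 in the Day 30 media. The mean CCDC80 ratio went from 0.612 to 1.18, 0.801 and 1.05, with the Day 16 range of 0.477 to 0.764 fully under that of RPMI/B27 (1.07 to 1.36) and overlapping that of RPMI_glcM/B27 (0.576 to 0.901). AQP4 went the other way, from 0.0970 to 0.0583, 0.0236 and 0.0322, and its Day 16 range did not meet that of any Day 30 group.

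**Figure D2:**
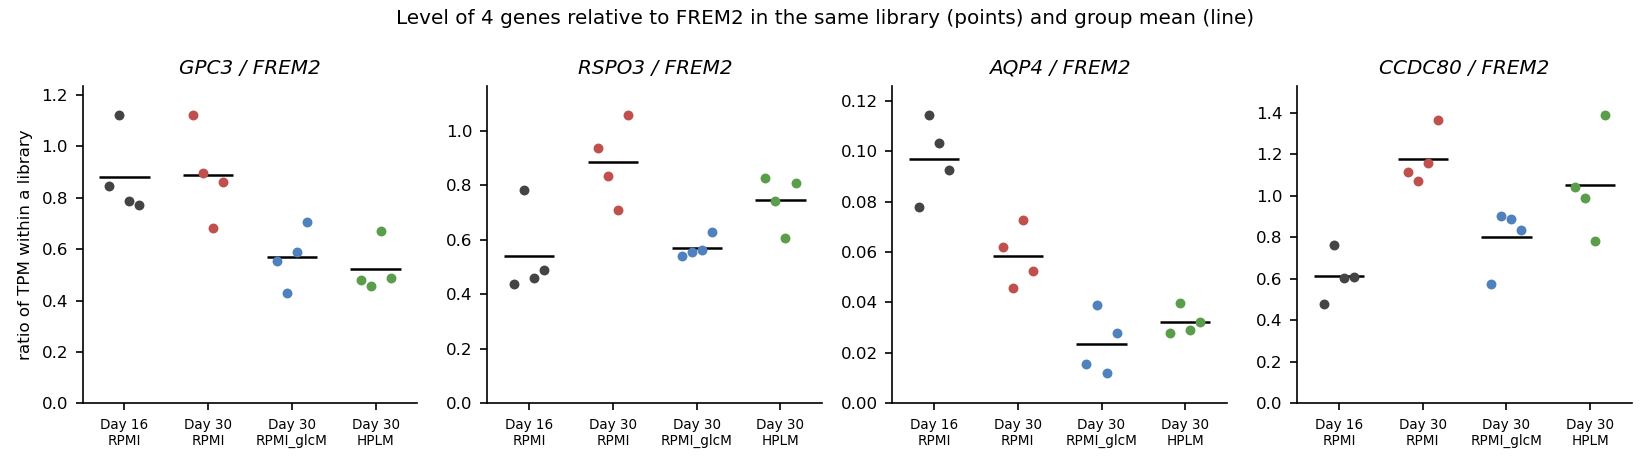
Ratio of TPM to that of FREM2 within a library (y, from 0) for GPC3, RSPO3, AQP4 and CCDC80 in the 4 groups (x), with points for libraries and a line for the mean. The mean GPC3 ratio is alike at Day 16 and in Day 30 RPMI/B27 (0.883 and 0.890) and lower in RPMI_glcM/B27 and HPLM/B27. The mean CCDC80 ratio is lowest at Day 16, and the AQP4 ratio is highest there.

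The comparison of Day 30 media asks whether glucose level or the rest of the medium changed these genes further. HPLM/B27 differs from RPMI/B27 in glucose and in the rest of its composition, so that comparison cannot separate them. The genes were chosen on each Day 30 medium against Day 16 and not on the media against each other, although earlier results of these data were known. With glucose lowered to 5 mM, RSPO3 and CCDC80 fell below their level in RPMI/B27, to 61.8% and 64.6% of it. The log2 difference was -0.62 (SE 0.13, adjusted p = 0.0192) for RSPO3 and -0.59 (SE 0.13, adjusted p = 0.0204) for CCDC80 by limma on log2(TPM + 1) with Benjamini-Hochberg adjustment over all genes. The RSPO3 call was lost without RPMI_glcM/B27 replicate 2, 3 or 4 (adjusted p 0.0535 to 0.0648), the CCDC80 call without replicate 1 (0.0724) or 4 (0.0620), and both in a limma fit of only these 2 groups (0.193 and 0.188). GPC3 stood at 59.7% of its RPMI/B27 level (log2 difference -0.64, 95% confidence interval -1.08 to -0.21, adjusted p = 0.125) and AQP4 at 37.7% (-0.49, adjusted p = 0.156), neither past the threshold of 0.05. FREM2 was at 94.8% of RPMI/B27, with a log2 difference of -0.06 and an interval of -0.39 to 0.27. So 2 of the 5 genes were called lower, where 0.837% of all tested genes were (2.2% in either direction). GPC3, RSPO3 and CCDC80 each had every RPMI_glcM/B27 library below every RPMI/B27 library, an arrangement found in 2.6% of tested genes (8.48% after rescaling). After rescaling these 3 genes were called lower, with adjusted p of 0.0106 for GPC3, 0.000222 for RSPO3 and 0.00762 for CCDC80, where 5.64% of all genes were called lower. AQP4, which is among the tested genes only through Day 16, had an adjusted p of 0.0284 after rescaling and is not counted with them, since its RPMI_glcM/B27 libraries rest on 3 to 11 reads.

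In HPLM/B27, GPC3 fell to 47.9% of its RPMI/B27 level (log2 difference -0.94, SE 0.21, limma adjusted p = 0.0227). This call was lost without HPLM/B27 replicate 1, 2 or 4 or RPMI/B27 replicate 1 or 2 (adjusted p 0.0539 to 0.0795) and in a limma fit of only these 2 groups (0.160). RSPO3 was at 68.4% (-0.49, adjusted p = 0.0590), CCDC80 at 71.9% (-0.45, adjusted p = 0.0749), AQP4 at 44.4% (-0.42, adjusted p = 0.227) and FREM2 at 80.8% (-0.27, adjusted p = 0.447), none of them past the threshold. So 1 of the 5 was called lower, against 0.893% of all tested genes (2.41% in either direction), and GPC3, RSPO3 and CCDC80 had groups that did not overlap, which 3.17% of tested genes showed in this direction (7.67% after rescaling). Rescaling added RSPO3 to the calls (adjusted p = 0.00212, where 5.55% of all genes were called lower) and brought the CCDC80 groups to overlap. Replicates 3 and 4 of RPMI/B27 bear on both comparisons. Without them GPC3, RSPO3 and CCDC80 were called lower in either medium, with log2 differences of -1.003, -0.81 and -0.68 in RPMI_glcM/B27 and -1.30, -0.68 and -0.54 in HPLM/B27, and FREM2 was not, at -0.24 and -0.45. In that setting 9.31% of all genes were called lower in RPMI_glcM/B27 and 19.4% in HPLM/B27.

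Between HPLM/B27 and RPMI_glcM/B27, which share their glucose level, none of the 5 genes passed the test, and 0.0682% of all genes did (11 genes by limma, with 1053 at an unadjusted p under 0.05, and 138 by limma-voom). After rescaling again none of the 5 was called, where 1.59% of all genes were. The log2 differences of HPLM/B27 from RPMI_glcM/B27 were -0.21 for FREM2 (95% interval -0.54 to 0.12), -0.30 for GPC3 (-0.73 to 0.14), 0.13 for RSPO3 (-0.14 to 0.41), 0.07 for AQP4 (-0.28 to 0.42) and 0.14 for CCDC80 (-0.12 to 0.41). All 5 genes had overlapping groups here. Whether the response of FREM2 to the medium differed from that of GPC3, RSPO3 or CCDC80 was not tested.

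**Figure D3:**
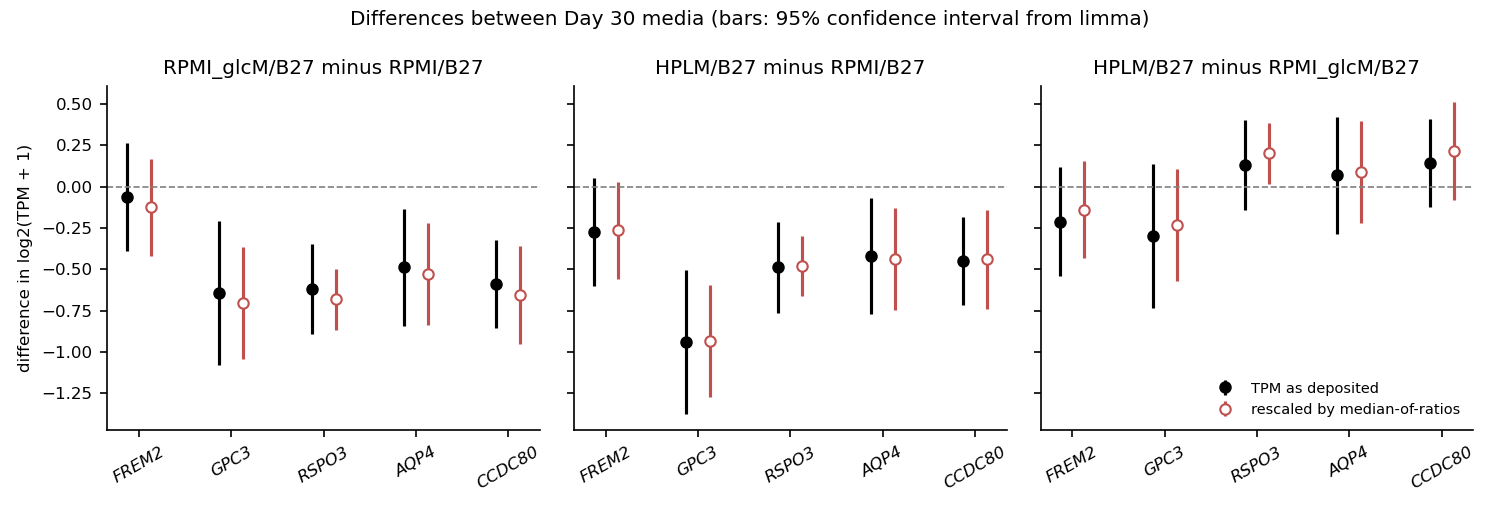
Difference in log2(TPM + 1) between Day 30 media (y) for the 5 genes (x), with limma's 95% confidence interval as bars, filled for TPM as deposited and open after rescaling. GPC3, RSPO3, AQP4 and CCDC80 lie below 0 in both comparisons with RPMI/B27, FREM2 has intervals that cross 0 in all 3 panels, and the deposited values of all genes cross 0 between HPLM/B27 and RPMI_glcM/B27.

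Marker genes of other cell types moved across the same groups. The summed TPM of 13 hepatic endoderm genes, 9 of them above the filter, was 457 to 797 at Day 16, 326 to 572 in RPMI/B27, 95.5 to 215 in RPMI_glcM/B27 and 74.7 to 212 in HPLM/B27. AFP, alpha-fetoprotein, a main serum protein of the fetal liver, led the list with 441 TPM at Day 16 and 138, 55.0 and 57.0 TPM at Day 30. By limma it was called lower than in RPMI/B27 both in RPMI_glcM/B27 (adjusted p = 0.0367) and in HPLM/B27 (adjusted p = 0.0337). HNF4A, a defining regulator of liver cells, was at 2.19 TPM at Day 16 and at most 0.529 TPM at Day 30, and the endoderm regulators FOXA2 and SOX17 were at or under 0.494 TPM in every group. ALB, serum albumin, rose from 21.2 TPM at Day 16 to 242 TPM in RPMI/B27 and was lower again at 78.1 and 49.9 TPM in the other media. The sum of 10 fibroblast genes was 196 to 350 TPM at Day 16, 126 to 247 TPM in RPMI/B27, 101 to 140 TPM in RPMI_glcM/B27 and 100.5 to 164 TPM in HPLM/B27. COL1A2, a chain of type I collagen, was called lower in RPMI_glcM/B27 than in RPMI/B27 (14.6 against 36.2 TPM, adjusted p = 0.00393) and in HPLM/B27 (19.9 TPM, adjusted p = 0.0421), while FAP was at 0 in all libraries outside RPMI/B27. For GPC3, which fetal liver makes, and for RSPO3 and CCDC80, the part that these cells have in the difference between media was not tested.

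Cardiac progenitor genes had a 12-gene sum that separated the days. It was 279 to 393 TPM at Day 16, and 134 to 236, 152 to 199 and 152 to 180 TPM in the Day 30 media, with HOXB1 at 0 in all libraries. FGF10, a growth factor of the second heart field, was called lower in all 3 media, at 108 TPM at Day 16 and 49.8, 58.0 and 48.0 TPM at Day 30. Of 10 neural and astrocyte genes, 3 passed the filter of a mean of 1 TPM. GFAP was at 0.224 to 0.698 TPM on average in the 4 groups, S100B at or under 0.145 TPM and OLIG2 at 0. The 10-gene sum was carried by NES (404 TPM at Day 16), and the other genes that passed are not described here. Endothelial genes summed to at most 4.36 TPM in any library. The sum of 10 epicardial genes was 27.2 to 33.9 TPM at Day 16, with MSLN at 0 in all groups but RPMI_glcM/B27. In the Day 30 media this sum was 19.9 to 38.05, 20.7 to 25.6 and 13.8 to 15.6 TPM. The 6 pluripotency genes summed to 48.3 to 64.6 TPM at Day 16 and to 7.86 to 16.0, 13.7 to 19.0 and 22.1 to 29.5 TPM in the Day 30 media. Nearly all of it was TDGF1, with POU5F1 and NANOG at or near 0.

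**Figure D4:**
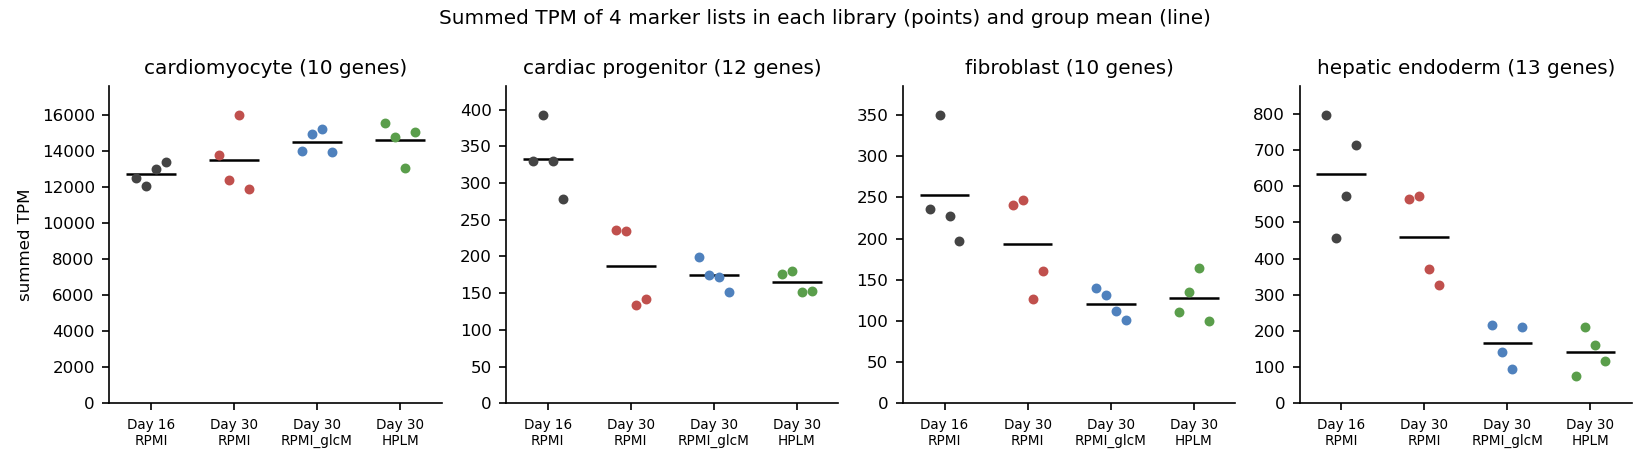
Summed TPM (y, from 0) of cardiomyocyte, cardiac progenitor, fibroblast and hepatic endoderm marker genes in the 4 groups (x), with points for libraries and a line for the mean. Hepatic endoderm genes are lower in RPMI_glcM/B27 and HPLM/B27 (74.7 to 215 TPM) than in RPMI/B27 (326 to 572 TPM). Cardiomyocyte genes stay between 11921 and 16026 TPM.

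Partners of RSPO3 were measured in a list of 40 genes of Wnt amplification and its readouts, of which 28 were tested. Of these, 13 were called lower and 4 higher than at Day 16 in RPMI/B27, 10 and 3 in RPMI_glcM/B27, and 15 and 1 in HPLM/B27, where 17.8%, 17.8% and 22.4% of all genes were called lower. The median log2 difference of the list was -0.48, -0.43 and -0.52, beside -0.28, -0.22 and -0.29 over all genes. Calls higher made up 2.08%, 3.34% and 3% of all genes. After rescaling the list counts were 8 lower and 8 higher, 9 and 5, and 9 and 4, beside 8.76%, 13.6% and 11.9% of all genes called lower and 8.76%, 14% and 13.4% called higher. RSPO3 was the only R-spondin at more than a few TPM: RSPO4 went from 3.35 TPM to 1.92, 1.04 and 0.692 TPM, and RSPO1 and RSPO2 were at or under 0.243 TPM in every group. Its receptor LGR4 was abundant, at 114 TPM at Day 16 and 118, 77.1 and 76.0 TPM at Day 30, and was called lower than at Day 16 in RPMI_glcM/B27 and HPLM/B27 (log2 differences -0.57 and -0.59), whereas LGR5 and LGR6 were near 0. LGR4 in RPMI/B27 stood at its Day 16 level as deposited (log2 difference 0.00, no call) and was called higher after rescaling (0.34).

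Single readouts and receptors of Wnt signaling gave mixed calls. LEF1, which binds DNA for the pathway and is induced by it, went from 24.8 to 12.4, 10.4 and 10.3 TPM and was called lower in all 3 media, also after rescaling. AXIN2, a feedback inhibitor induced by the pathway, went from 7.30 to 3.81, 4.87 and 3.83 TPM and was called lower in RPMI/B27 and HPLM/B27, with an adjusted p of 0.0772 in RPMI_glcM/B27. The receptor gene FZD7 was called lower in all 3 media (46.7 TPM at Day 16, then 15.8, 17.4 and 22.0 TPM), as were FZD3 and FZD5 as deposited. FZD1, a further receptor gene, went from 53.0 to 90.4, 97.4 and 61.9 TPM and was called higher in RPMI/B27 and RPMI_glcM/B27. After rescaling FZD1 was called higher in all 3 media. RNF43, a ligase that R-spondins restrain, went from 3.74 to 2.17, 2.34 and 2.13 TPM. As deposited it was called lower in RPMI/B27 and HPLM/B27, and after rescaling in none of the media. ZNRF3, the other ligase, was at 6.51 TPM at Day 16 and 4.77, 4.47 and 4.17 TPM at Day 30, and its differences did not pass the test. DKK1, a secreted inhibitor that the pathway induces, was at 5.51 TPM at Day 16 and 3.77, 6.56 and 7.28 TPM at Day 30, also with no call against Day 16. In the other direction SFRP1, a secreted Wnt inhibitor, rose from 76.7 to 189, 229 and 177 TPM and was called higher in all 3 media under both scalings. Between media the list had no call with lowered glucose as deposited, and in HPLM/B27 SFRP2 (1.203 against 5.16 TPM in RPMI/B27) and RSPO4 were called lower. After rescaling, 1 gene was higher and 5 lower with lowered glucose, and 3 were higher and 7 lower in HPLM/B27, where 5.64% and 5.55% of all genes were called lower and 6.46% and 7.43% higher. LGR4 was among the genes lower in both (adjusted p = 6.16e-05 and 0.000107).

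GPC3 was set beside 15 genes of glypicans, syndecans and enzymes that build or trim heparan sulfate, of which 14 were tested. Of these, 8, 10 and 10 were called lower than at Day 16 and 0 higher, where 17.8%, 17.8% and 22.4% of all genes were called lower. The calls were 4, 6 and 5 of 8 glypicans and syndecans and 4, 4 and 5 of 6 enzymes. The median log2 differences of the list were -0.52, -0.56 and -0.59, beside -0.28, -0.22 and -0.29 over all genes. Rescaled values gave 5 lower and 1 higher, 9 and 1, and 4 and 2, beside 8.76%, 13.6% and 11.9% of all genes lower. The shares of all genes called higher were 8.76%, 14% and 13.4%. GPC4, which lies next to GPC3 on chromosome X, went from 14.5 TPM to 4.60, 4.39 and 4.82 TPM and was called lower in all 3 media under both scalings. Its log2 differences from RPMI/B27 within Day 30 were -0.01 and 0.12, with no call. GPC2 (5.03 TPM at Day 16, then 1.77, 1.92 and 2.49 TPM) and the heparan sulfate polymerase gene EXT1 (50.3, then 27.7, 33.7 and 32.8 TPM) were called lower in all 3 media as well, though not in HPLM/B27 after rescaling. GPC1 was the most abundant glypican at Day 30, with 53.5 TPM at Day 16 and 71.1, 64.8 and 65.3 TPM later, which did not pass the test as deposited but was called higher in all 3 media after rescaling. As deposited no gene of the list was called between Day 30 media. After rescaling GPC6 was called lower in HPLM/B27 than in RPMI/B27 (adjusted p = 9.16e-05) and RPMI_glcM/B27 (0.00723), SULF1 lower in RPMI_glcM/B27 than in RPMI/B27 (0.0306) and SDC4 higher in HPLM/B27 than in RPMI/B27 (0.0430).

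Partners of FREM2 were followed in a list of their own. Among 12 tested genes of the Fraser complex and the basement membrane (15 in the list), 1 was called lower and 1 higher in RPMI/B27, 3 and 0 in RPMI_glcM/B27, and 5 and 0 in HPLM/B27, with medians of -0.30, -0.35 and -0.34. Over all genes 17.8%, 17.8% and 22.4% were called lower, 2.08%, 3.34% and 3% higher, and the medians were -0.28, -0.22 and -0.29. The medians of the list lay somewhat lower. Whether its share of calls departs from that of all genes was not tested. After rescaling 1 was lower and 2 higher, 2 and 1, and 3 and 1. Of all genes 8.76%, 13.6% and 11.9% were then called lower and 8.76%, 14% and 13.4% higher. FRAS1, which assembles with FREM2, was at 47.5 TPM at Day 16 and kept 33.7, 41.3 and 32.1 TPM, with log2 differences of -0.53, -0.20 and -0.55, of which the first and the last were called. FREM1, the third protein of the complex, went from 9.56 to 6.76, 6.41 and 4.66 TPM and was called lower in HPLM/B27. NPNT, nephronectin, a ligand of the complex, was called higher in RPMI/B27 (29.7 to 52.9 TPM) and lower in HPLM/B27 than in RPMI/B27 (26.9 TPM, adjusted p = 0.0127). No other gene of this list was called between media as deposited. After rescaling 4 were lower and 1 higher with lowered glucose, and 3 lower and 0 higher in HPLM/B27 than in RPMI/B27. Of all genes 5.64% and 5.55% were called lower and 6.46% and 7.43% higher. In HPLM/B27 against RPMI_glcM/B27, 1 was lower and 1 higher, beside 1.59% of all genes called in either direction.

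Another water channel, AQP1, rose where AQP4 was lower. Of 20 aquaporins and anchoring genes 7 were tested, and 1 was called lower and 2 higher in RPMI/B27, 0 and 1 in RPMI_glcM/B27, and 1 and 2 in HPLM/B27, with medians of -0.29, 0.13 and -0.09. All genes had 17.8%, 17.8% and 22.4% called lower, 2.08%, 3.34% and 3% called higher, and medians of -0.28, -0.22 and -0.29. After rescaling 0 were lower and 3 higher, 0 and 4, and 1 and 3. Beside these, 8.76%, 13.6% and 11.9% of all genes were called lower and 8.76%, 14% and 13.4% higher. AQP1, the water channel of vessels and red cells, went from 21.9 TPM to 67.1, 66.8 and 90.9 TPM and was called higher in all 3 media under both scalings. DMD, dystrophin, was at 97.9 TPM at Day 16 and 114, 116 and 89.0 TPM at Day 30 with no call as deposited and calls higher in RPMI/B27 and RPMI_glcM/B27 after rescaling.

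CCDC80 was set beside 15 relatives and secreted matrix genes, 11 of them tested. In each Day 30 medium 5 were called lower than at Day 16, the same number after rescaling, and 2, 2 and 0 were called higher (4, 5 and 4 after rescaling). The share of all genes called lower was 17.8%, 17.8% and 22.4% (8.76%, 13.6% and 11.9% after rescaling). The share called higher was 2.08%, 3.34% and 3% (8.76%, 14% and 13.4% after rescaling). The median log2 difference was -0.20, 0.08 and -0.03, beside -0.28, -0.22 and -0.29 over all genes. The genes called lower were FN1, FBN1, FBN2, FBLN1 and FBLN2 in all 3 media, that is fibronectin, fibrillins and fibulins of the embryonic matrix. FN1 went from 399 TPM to 110, 70.4 and 104 TPM. FBLN1, at 7.46 TPM at Day 16 and 2.07, 1.22 and 1.04 TPM later, had log2 differences of -1.45, -1.92 and -2.04. SRPX, a secreted protein that shares a domain with CCDC80, was at 31.6 TPM at Day 16 and 47.6, 39.1 and 32.2 TPM at Day 30, without a call as deposited. MFAP4, a microfibril protein, went from 7.14 to 26.7, 28.5 and 11.4 TPM, was called higher in RPMI/B27 and RPMI_glcM/B27, and was lower in HPLM/B27 than in RPMI/B27 (adjusted p = 0.0257), as was MFAP2 (adjusted p = 0.0111). After rescaling the list had 3 genes lower and 1 higher with lowered glucose, and 6 lower and 0 higher in HPLM/B27 than in RPMI/B27. Of all genes 5.64% and 5.55% were called lower and 6.46% and 7.43% higher.

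**Figure D5:**
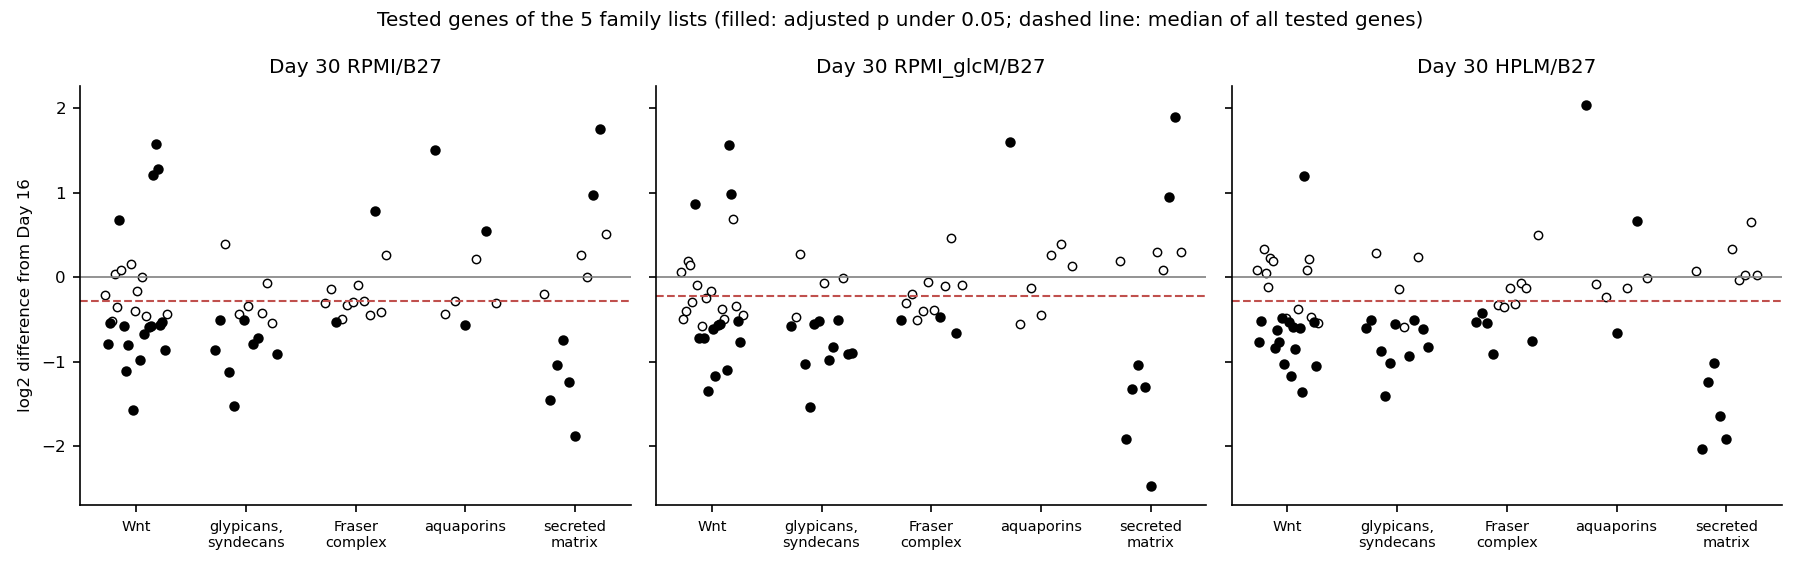
Log2 difference from Day 16 (y) of the tested genes of the 5 family lists (x) in the 3 Day 30 media, with filled points for an adjusted p under 0.05 and the dashed line at the median of all tested genes (-0.28, -0.22 and -0.29). The 5 matrix genes at the bottom of each panel are FN1, FBN1, FBN2, FBLN1 and FBLN2, and the highest aquaporin point is AQP1.

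Genes that overlap or adjoin the 5 genes moved in part with them. FREM2-AS1, on the opposite strand within FREM2, went from 4.75 ± 1.23 TPM at Day 16 to 0.960, 1.74 and 1.15 TPM and was called lower in RPMI/B27 (adjusted p = 0.00676) and HPLM/B27 (adjusted p = 0.00870), with an adjusted p of 0.0529 in RPMI_glcM/B27. GPC3-AS1 was at 2.00 TPM at Day 16 and at most 0.347 TPM at Day 30, and AQP4-AS1 at 0.505 TPM and at most 0.0576 TPM. The library kit keeps strand, but how strand was set in counting is not given in the sources used here, so reads of these genes and their antisense partners cannot be told apart. Nearest protein-coding neighbours gave a mixed picture. CCDC160 beside GPC3 was called lower in all 3 media (17.7 TPM at Day 16, then 9.27, 8.58 and 6.68 TPM). UFM1 beside FREM2, RNF146 beside RSPO3 and SLC35A5 beside CCDC80 had no call against Day 16, CENPW on the other side of RSPO3 was called lower in all 3 media, and KCTD1 beside AQP4 was called lower in RPMI/B27, with adjusted p of 0.0776 and 0.0819 in the other media.

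Patterns over the 16 libraries most like those of the 5 genes are given as a description, since all of them follow the step from Day 16 to Day 30 and the libraries share line, protocol and scale. Among the 9753 genes whose mean reached 5 TPM, FREM2 was most like HAS2 (Pearson's r = 0.985 of log2(TPM + 1)), MYH10 (0.978) and GOLM1 (0.974). HMGA2, a chromatin protein of embryonic cells, was first for both GPC3 (0.978) and RSPO3 (0.982), and its mean went from 55.8 TPM to 23.0, 15.4 and 14.4 TPM. After HMGA2, GPC3 was most like RSPO3 (0.974) and ZNF217 (0.967), and RSPO3 most like ZNF217 (0.977) and CCDC80 (0.976). CCDC80 was most like RSPO3, ADAMTS12 (0.974) and HAPLN1 (0.970), a hyaluronan link protein, and AQP4 most like CCDC80 (0.979), ADAMTS12 (0.976) and HAS2 (0.975). FREM2 had GPC3, RSPO3 and CCDC80 at ranks 13, 39 and 63 of its own list and was at rank 5 in those of GPC3 (0.966) and AQP4 (0.975).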

How the data were processed

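Total RNA of 16 wells of WTC11 hPSC-CMs was extracted with Trizol, and stranded libraries were made with a Takara SMARTer kit. The authors aligned reads to hg38 with STAR 2.5.3a, counted them with featureCounts 2.0.3 and deposited TPM for 43388 genes. The annotation, gene lengths and TPM tool are not given in the sources used here, and the authors' tests used DESeq2 on counts. The deposited table held 0 columns without a sample. From the TPM, log2(TPM + 1) of the 16122 genes whose mean reached 1 TPM was fitted with limma 3.58.1 in R 4.3.3 (eBayes with a trend, all 4 groups), with Benjamini-Hochberg adjustment within each of 6 comparisons and a threshold of 0.05. Whole reads were recovered from ratios of a gene's TPM for all 31047 genes above 0 (tolerance 0.002), and both steps were tested on simulated data. Alternatives were a pseudocount of 0.1, no filter, median-of-ratios rescaling, fits of 2 groups, a replicate block, leaving out each library, and limma-voom on recovered reads (mean of at least 10 reads). Leaving out both Day 30 RPMI/B27 libraries rich in RNR1 was chosen after seeing the data. The 5 genes, the family lists and the marker lists were chosen with earlier results of these data known. Named genes are these 5, the lists, overlapping and neighbouring genes (GENCODE v44), the 3 most similar genes of each and the 10 most reduced genes. Promoters came from RefSeq (GRCh38.p14). Tables were handled with Python 3.11.15, pandas 2.3.3, numpy 2.4.6 and scipy 1.17.1, and figures drawn with matplotlib 3.10.9. The values of 1 gene of the aquaporin and anchoring list are not reported here.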

Additional observations from a re-analysis of the deposited data

Results flagged for a closer look

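Among 20 sets of 4 libraries (5 genes in 4 groups), 3 held a library whose gap to the nearest other library was large against the whole range of the set, where about 1 in 20 sets would by chance. The 5 genes share the same libraries, so the sets are not independent, and whether 3 is an excess was not tested. GPC3 in HPLM/B27 had replicate 3 at 9.28 TPM above 5.14 to 5.62 TPM, a gap of 0.885 of the range. RSPO3 in HPLM/B27 had replicate 1 at 9.66 TPM above 8.41 to 8.53 TPM (0.899 of the range), and AQP4 at Day 16 had replicate 3 at 8.57 TPM above 6.64 to 6.84 TPM (0.897 of the range).

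The change from Day 16 differed between media for 3 of the genes by limma: GPC3 in HPLM/B27 against RPMI/B27 (log2 difference -0.94, adjusted p = 0.0227), and RSPO3 (-0.62, adjusted p = 0.0192) and CCDC80 (-0.59, adjusted p = 0.0204) in RPMI_glcM/B27 against RPMI/B27. Day 16 cancels from this difference, so these are the tests between Day 30 media given above and no further result. As described there, each call was lost without some single libraries and in the fit of only the 2 groups. Of all tested genes, 0.837% were called lower in RPMI_glcM/B27 and 0.893% in HPLM/B27. In each case all 4 libraries of the named medium lay below all 4 RPMI/B27 libraries. That arrangement was found in 2.6% of tested genes in RPMI_glcM/B27 and 3.17% in HPLM/B27 (8.48% and 7.67% after rescaling).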

How the results depend on the processing

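Counts of genes called in RPMI/B27, RPMI_glcM/B27, HPLM/B27 against Day 16 were 3203, 3400 and 4088, and between media 354 (RPMI_glcM/B27 against RPMI/B27), 388 (HPLM/B27 against RPMI/B27) and 11 (HPLM/B27 against RPMI_glcM/B27). Median-of-ratios rescaling changed the split against Day 16 from 336 higher and 2867 lower to 1413 and 1413 in RPMI/B27, from 538 and 2862 to 2254 and 2199 in RPMI_glcM/B27, and from 483 and 3605 to 2154 and 1919 in HPLM/B27. Between media it gave 1952, 2092 and 257 genes. Against RPMI/B27 it called 4 and 2 of the 5 genes lower, where 5.64% and 5.55% of all genes were. The deposited TPM gave 2 and 1, beside 0.837% and 0.893% of all genes. Limma-voom on recovered reads gave 1220, 1564 and 138 genes between media and called 4 and 4 of the 5. Wherever 4 are counted, AQP4, tested only through its Day 16 level, is among them. Fits of only the 2 groups gave 998 genes in RPMI/B27 against Day 16 and 45, 81 and 33 between media, with 0 and 0 of the 5 called. With a replicate block the counts between media were 721, 732 and 48, and RSPO3 joined GPC3 in HPLM/B27 (2 of the 5). The labels do not say that a number marks a shared batch. Deviations correlated above 0.1 in 6 of 24 same-numbered pairs (-0.07 to 0.21) and 2 of 72 others. The share was thus higher in same-numbered pairs, and whether the numbers mark pairs was not tested. Without both RPMI/B27 libraries rich in RNR1, chosen after seeing the data, 1558 genes were called in RPMI/B27 against Day 16, and 1669 (1501 lower) and 3367 (3120 lower) against RPMI/B27 between media, with 3 and 3 of the 5. Leaving out each library in turn gave 1761 to 5012 genes in RPMI/B27 against Day 16 (over 1.5 times away without Day 16 replicates 1 or 3 or RPMI/B27 replicates 2 or 4), and 143 to 441, 187 to 519 and 1 to 5 between media. Of the 5 genes it called 0 to 2 in RPMI_glcM/B27 against RPMI/B27, fewer than 2 without any single RPMI_glcM/B27 library, and 0 to 3 in HPLM/B27 against RPMI/B27, a count that moved without any library of the 2 groups other than HPLM/B27 replicate 3. FREM2 between RPMI_glcM/B27 and RPMI/B27 ranged from -0.19 to 0.018 and changed sign without RPMI/B27 replicate 2 (0.018) or RPMI_glcM/B27 replicate 4 (0.01), with no call in any of them. The causes were not tested. AQP4 at Day 30 is limited by reads, 3 to 45 per library.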
